A study of Mus musculus with 6 samples.

Results

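The chemokine and chemoattractant receptors described here are 6 genes, Ccr1, Ccr2, Cx3cr1, Cxcr4, Fpr1 and Fpr2, measured in macrophages grown from the marrow of vimentin-deficient and wild-type mice. Members were found as the probe sets of the array whose annotation names exactly 1 gene symbol and that symbol is one of the 6. That gave 10 probe sets of 34945 with a single symbol, for 5 of 18193 genes. Fpr1 had no such probe set and is not analysed here. A gene was read on its brightest probe set, and all 5 measured receptor genes lay above the filter on dim probe sets, among 13445 tested genes. Levels are log2 probe set values, and a difference is the vimentin-deficient mean minus the wild-type mean on that scale.

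One group is 3 arrays of macrophages from vimentin-deficient mice and the other 3 arrays of macrophages from wild-type littermates, all on a C57BL/6 background and 17 weeks old. In both groups femoral marrow was cultured at normal oxygen with the supernatant of the cell line CMG14-12, which supplies macrophage colony-stimulating factor. The sources used here do not give the vimentin allele or the sex of the mice, and the samples are called biological replicates without saying whether each is 1 animal. P-values therefore measure only the spread between these samples. The design text of the series asks about vimentin in hosts prone to atherosclerosis that received such marrow; samples of those hosts are not analysed here.

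Chemokine receptors are proteins of the cell surface that cross the membrane 7 times and signal through inhibitory G proteins, so that a leukocyte moves up a gradient of the ligand. CCR1 binds inflammatory chemokines such as CCL3 and CCL5, CCR2 binds CCL2, CCL7 and CCL12 and brings monocytes out of the marrow, and CX3CR1 binds the membrane-tethered chemokine CX3CL1. CXCR4 binds CXCL12 and retains blood-forming cells in the marrow, and the formyl peptide receptors bind peptides of bacterial and mitochondrial origin as well as annexin A1.

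Ccr1 and Cxcr4 were the 2 receptor genes whose values varied most over the arrays, and their start regions are shown so that the difference in their base composition can be seen. Each is the 300 bases from RefSeq on GRCm38.p6 that run from 250 bases before the annotated start to 50 bases after it, written along the gene's own strand. Capitals mark the motifs found by a search on both strands. The search used GGGCGG (the GC box), CCAAT (the box bound by NF-Y) and TATAAA (the TATA box). It also used ACGTG (a form of the hypoxia response element core) and GAGGAA (the core bound by PU.1). Ccr1 lies at chr9:123968643-123968942 on the minus strand and Cxcr4 at chr1:128592250-128592549 on the minus strand.
Ccr1: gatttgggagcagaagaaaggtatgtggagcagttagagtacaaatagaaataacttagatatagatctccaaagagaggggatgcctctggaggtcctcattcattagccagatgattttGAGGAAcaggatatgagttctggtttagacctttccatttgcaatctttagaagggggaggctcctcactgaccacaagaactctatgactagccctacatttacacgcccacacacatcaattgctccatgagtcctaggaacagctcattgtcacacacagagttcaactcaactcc
Cxcr4: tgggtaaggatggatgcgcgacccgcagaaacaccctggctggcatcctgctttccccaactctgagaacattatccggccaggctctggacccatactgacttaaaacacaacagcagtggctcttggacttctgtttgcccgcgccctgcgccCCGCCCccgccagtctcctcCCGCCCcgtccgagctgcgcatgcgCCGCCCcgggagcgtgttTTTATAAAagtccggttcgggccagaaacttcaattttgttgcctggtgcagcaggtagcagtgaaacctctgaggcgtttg

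The Ccr1 region holds 44.0% G and C and 1 CpG, against 59.3% and 20 CpGs in the Cxcr4 region. The medians over 32851 promoters of the same length are 52.7% and 7. Ccr1 has 1 match, to the PU.1 core, at 129 bases before the start, and 28.3% of all promoters hold that motif. Cxcr4 has 3 GC boxes on the opposite strand at 95, 75 and 50 bases before the start, and TATA matches on both strands that overlap at 32 and 30 bases before it. A GC box is in 35.7% of all promoters and the TATA motif in 13.6%. The NF-Y box and the ACGTG form of the hypoxia core, held by 37.4% and 19.6% of promoters, have no match in either region. Other forms of the hypoxia core were not searched for. The matches describe the letters only, and no binding was measured.

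Vim, the targeted gene, read 8.20, 6.96 and 7.13 on vimentin-deficient replicates 1 to 3 and 13.41, 13.24 and 13.31 on wild-type replicates 1 to 3, and its other probe sets were also lower on all 3 vimentin-deficient arrays. The sources used here do not say where these probe sets lie relative to the deleted part. Vimentin-deficient replicate 3 stood apart: its correlation with the other arrays over all probe sets was 0.975 to 0.979, against 0.992 to 0.998 among the other 5, so each receptor result is given with and without it. All 10 macrophage markers, led by Lyz2 and Cd68, were above the filter, with a mean level of 11.9 to 12.2 on every array. Of the markers of other cells, 0 of 5 measured for mast cells, basophils and eosinophils and 1 of 4 for B cells were above it. The counts were 8 of 12 for neutrophils, 4 of 7 for dendritic cells and 3 of 6 for T and NK cells. They were 5 of 8 for stroma and endothelium and 2 of 5 for monocytes, so the filter does not separate macrophage markers from those of other cells. The brightest markers of those other lists were Cpa3 and Siglecf, Pax5 and Cd79a, Ms4a4c and Plac8 (monocytes), Csf3r and Elane (neutrophils), Batf3 and Xcr1 (dendritic cells), Cd3e and Cd8a (T and NK cells) and Pdgfrb and Kdr (stroma and endothelium). In bulk RNA, fewer cells that express a receptor and less of its RNA per cell cannot be told apart.

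No receptor gene passed the test with all 6 arrays (0 of 5, limma adjusted p below 0.05 with Benjamini-Hochberg), where 0.0223% of all tested genes did. At an unadjusted limma p below 0.05 there were also 0 of 5, against 7.97% of all tested genes, and a per-gene linear model without shared variances called 0. Without vimentin-deficient replicate 3, 0 of 5 passed the adjusted threshold (2.34% of all tested genes), and 1 of 5, Ccr1, had an unadjusted p below 0.05 (14.2% of all tested genes). The 5 genes differed in their spread. Ccr1 and Cxcr4 ranged over more than 2 log2 units between arrays, while Ccr2, Cx3cr1 and Fpr2 stayed within 0.3.

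**Figure D1:**
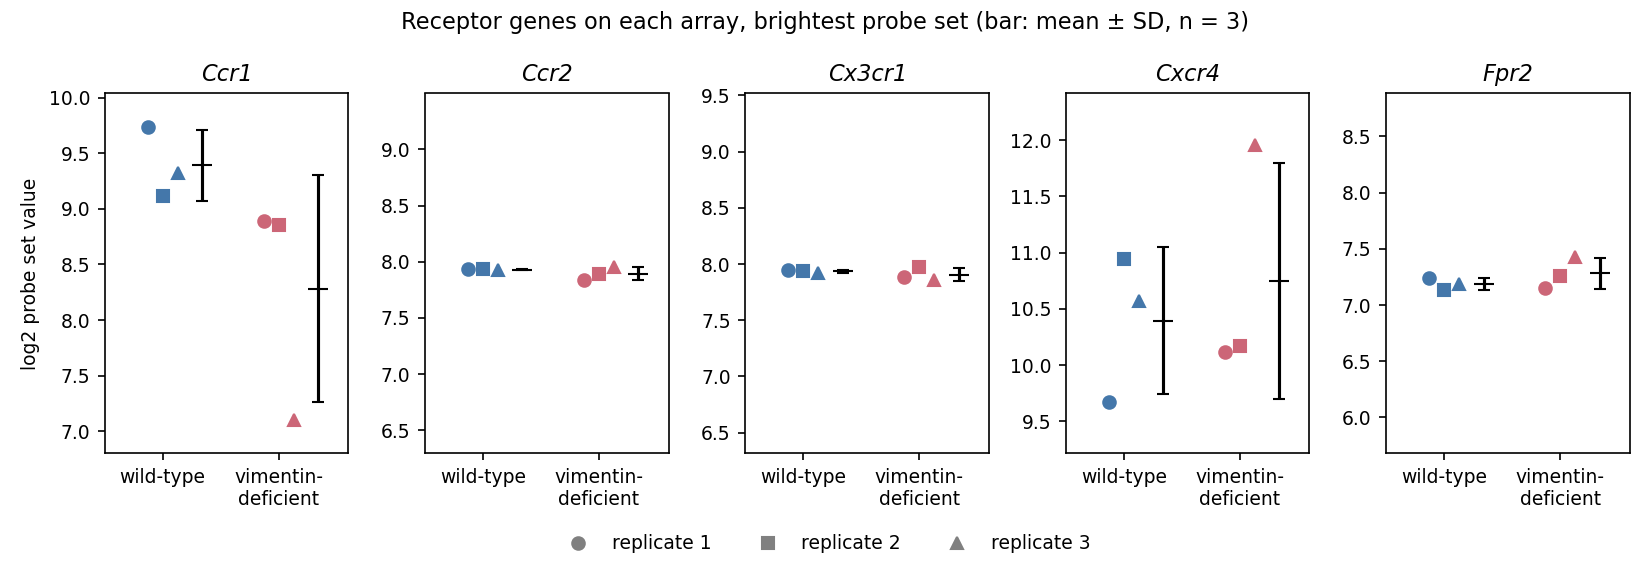
Log2 value of the brightest probe set of each measured receptor gene on the 3 wild-type (blue) and 3 vimentin-deficient (red) arrays; symbols give the replicate number and bars the mean ± SD (n = 3). Each vertical axis has its own range. Ccr1 is lower on all 3 vimentin-deficient arrays, with replicate 3 at 7.10, and Cxcr4 is highest on that same array, at 11.96.

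Ccr1, a receptor for inflammatory CC chemokines on monocytes, macrophages and osteoclast precursors, was lower on every vimentin-deficient array. It read 8.89, 8.85 and 7.10 on vimentin-deficient replicates 1 to 3 and 9.74, 9.11 and 9.32 on wild-type replicates 1 to 3. The groups did not overlap, and 10.1% of all tested genes likewise had all 3 vimentin-deficient arrays below all 3 wild-type arrays. The means were 8.28 ± 1.02 (SD, n = 3) and 9.39 ± 0.32 (SD, n = 3).

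The difference of Ccr1 was -1.11 on the log2 scale (SE 0.47, 95% interval -2.24 to 0.02), a 2.16-fold lower level, which did not pass the test (limma adjusted p = 0.627). Much of its size rested on vimentin-deficient replicate 3, which stood at -1.77 relative to the mean of the other 2 arrays of its group. Without that array the difference was -0.52 (SE 0.15, 95% interval -0.85 to -0.20), or 1.44-fold (limma adjusted p = 0.108). By p-value Ccr1 ranked 1129 of 13445 genes with 6 arrays and 600 without replicate 3. A second, dim probe set of Ccr1, below the filter, read 6.45, 6.45 and 6.17 in vimentin-deficient and 6.67, 6.47 and 6.52 in wild-type macrophages, a difference of -0.20 (SE 0.09), and -0.10 without vimentin-deficient replicate 3 (adjusted p = 0.572).

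Ccr2, the receptor for the monocyte chemokine CCL2, gave nearly the same value on every array. Its brightest probe set read 7.84, 7.89 and 7.96 on vimentin-deficient replicates 1 to 3 and 7.94, 7.93 and 7.92 on wild-type replicates 1 to 3. The groups overlapped. The difference was -0.04 (SE 0.05, 95% interval -0.16 to 0.08, limma adjusted p = 0.886), and without vimentin-deficient replicate 3 it was -0.07 (adjusted p = 0.698). The other 3 probe sets of Ccr2 were below the filter, with differences of -0.02, -0.02 and 0.07, and of -0.09, -0.04 and -0.03 without that array. These values still hold the background signal, so the difference of so dim a probe set can be compressed.

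Cx3cr1, the fractalkine receptor of patrolling monocytes and many tissue macrophages, was as even. It read 7.89, 7.98 and 7.86 in vimentin-deficient and 7.95, 7.94 and 7.92 in wild-type macrophages, with overlap between the groups. The difference was -0.03 (SE 0.05, 95% interval -0.15 to 0.09, limma adjusted p = 0.912), and without vimentin-deficient replicate 3 it was -0.005 (adjusted p = 0.985). Its second probe set, below the filter, differed by 0.03 in both fits. Signal near background limits Ccr2 and Cx3cr1, so an even reading does not show a steady level of RNA.

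Cxcr4, the CXCL12 receptor, differed more between arrays of 1 genotype than between the genotype means. It read 10.11, 10.17 and 11.96 on vimentin-deficient replicates 1 to 3 and 9.67, 10.94 and 10.57 on wild-type replicates 1 to 3. The groups overlapped: the highest array was vimentin-deficient and the lowest wild-type. The means were 10.75 ± 1.05 (SD, n = 3) and 10.39 ± 0.65 (SD, n = 3), a difference of 0.35 (SE 0.55, 95% interval -0.95 to 1.66, limma adjusted p = 0.901). Without vimentin-deficient replicate 3, which lay 1.82 above the mean of the other 2, the sign turned, to -0.25 (SE 0.27, 95% interval -0.85 to 0.35, adjusted p = 0.775). Without wild-type replicate 1 the difference was -0.01. No direction can be given for Cxcr4 between the genotypes. Wild-type replicate 2 was 2.42-fold above wild-type replicate 1. Cxcr4 has 1 probe set here.

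Fpr2, a formyl peptide receptor that also binds annexin A1 and serum amyloid A, read 7.16, 7.26 and 7.43 in vimentin-deficient and 7.24, 7.13 and 7.19 in wild-type macrophages. The groups overlapped, and vimentin-deficient replicate 3 was the highest array. The difference was 0.10 (SE 0.07, 95% interval -0.08 to 0.27, limma adjusted p = 0.772), and 0.02 without that array (adjusted p = 0.920). Its values lie close to the filter value of 6.93.

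**Figure D2:**
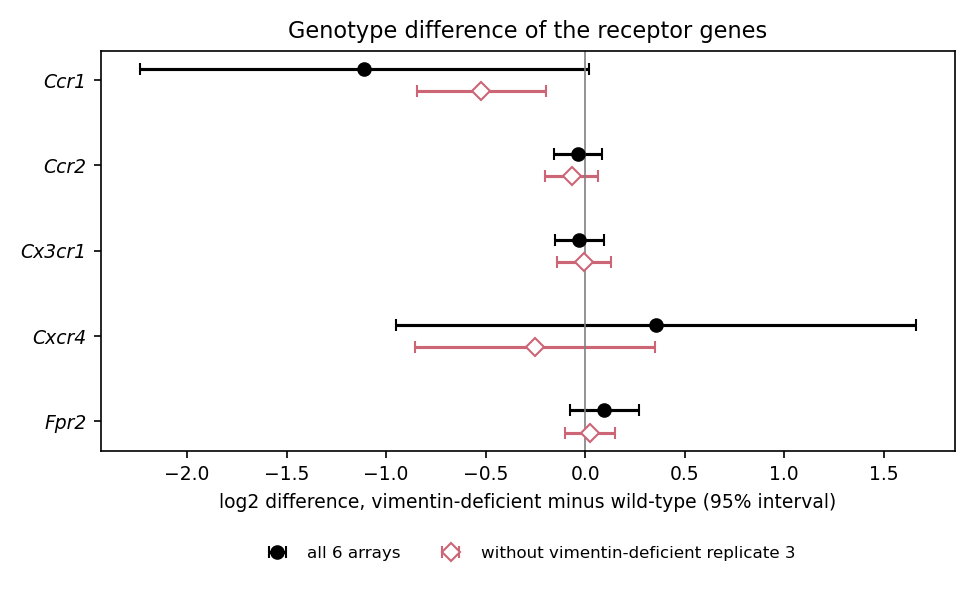
Log2 difference of each receptor gene, vimentin-deficient minus wild-type, with the 95% interval of the limma fit, for all 6 arrays (circles) and without vimentin-deficient replicate 3 (diamonds). Ccr1 moves from -1.11 to -0.52 and Cxcr4 from 0.35 to -0.25 when that array is left out, while the intervals of Ccr2, Cx3cr1 and Fpr2 stay near 0 in both fits.

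The spread of the receptor genes was set beside that of all tested genes, whose median range over the 6 arrays was 0.264. Ccr1 had a range of 2.63, the 45th widest of 13445, and Cxcr4 one of 2.29, the 69th widest. Part of this was present without the array that stood apart: over the other 5 arrays their ranges were 0.885 and 1.27, at percentiles 98.8 and 99.7. Among the wild-type arrays alone, the SD of Cxcr4 was the 2nd largest of all tested genes, 0.65 against a median of 0.0684, and that of Ccr1 was at percentile 99.0. Ccr2 and Cx3cr1 had ranges of 0.117 and 0.119, at percentiles 7.71 and 7.93, and Fpr2 one of 0.296, at percentile 56.8. For Ccr2 and Cx3cr1, signal near background can also give a narrow range.

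**Figure D3:**
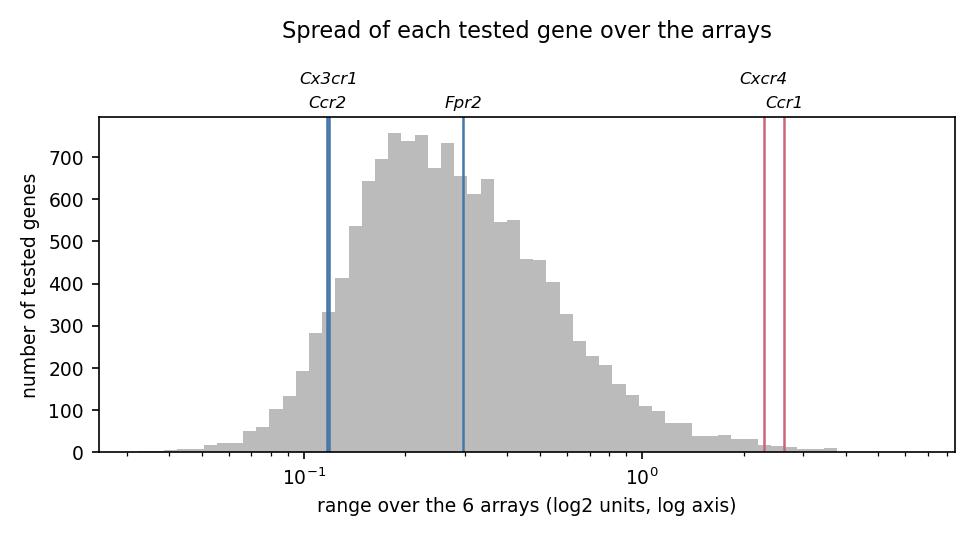
Number of tested genes by the range of their log2 values over the 6 arrays (highest minus lowest, on a log axis), with a line for each receptor gene. Ccr1 (2.63) and Cxcr4 (2.29) lie in the right tail, and Ccr2 (0.117) and Cx3cr1 (0.119) to the left of the median of 0.264.

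Ccr1 and Cxcr4 ran in opposite orders within each genotype. Among the vimentin-deficient arrays Ccr1 was highest on replicate 1 and lowest on replicate 3, and among the wild-type arrays highest on replicate 1 and lowest on replicate 2; Cxcr4 had the reverse order in both. The mean of 9 measured proliferation genes, a list chosen after the array values were seen, had the order of Ccr1 within each genotype. Relative to its wild-type mean it was 0.51, 0.29 and -2.14 on vimentin-deficient replicates 1 to 3 and 0.29, -0.32 and 0.03 on wild-type replicates 1 to 3. Mki67, a marker of cycling cells, was at 7.20 on vimentin-deficient replicate 3 and between 9.35 and 10.27 on the other arrays. Ccr1 was lower on vimentin-deficient replicates 1 and 2 than on every wild-type array. The proliferation mean of vimentin-deficient replicate 1 was above every wild-type array. That of vimentin-deficient replicate 2, 0.287, was just below that of wild-type replicate 1, 0.289. The part of proliferation in the values of Ccr1 and Cxcr4 was not tested.

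**Figure D4:**
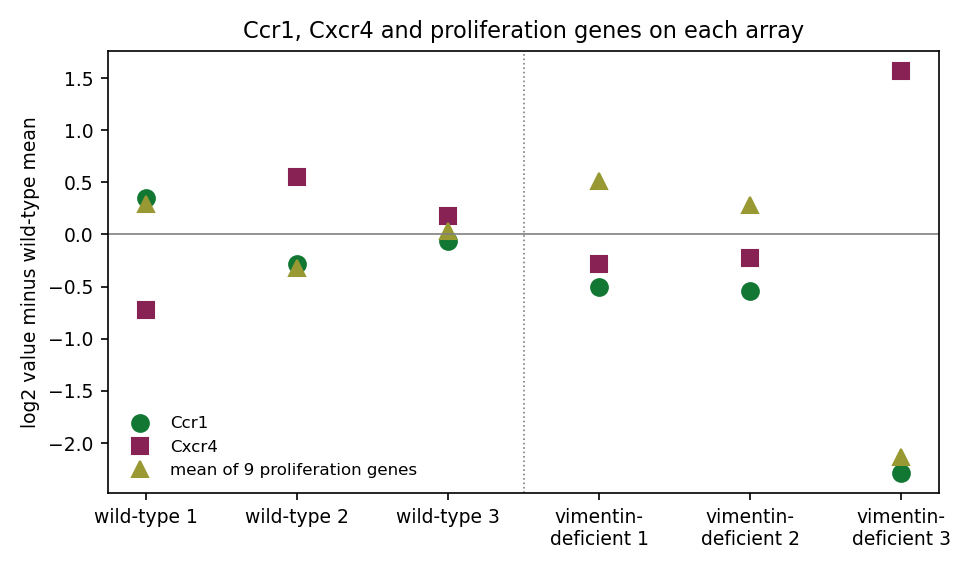
Log2 value minus the wild-type mean on each array for Ccr1 (circles), Cxcr4 (squares) and the mean of 9 proliferation genes (triangles), with the wild-type arrays to the left of the dotted line. On vimentin-deficient replicate 3 Ccr1 and the proliferation genes are the lowest points and Cxcr4 is the highest.

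Marker lists also differed on the same array. The mean of the 5 measured monocyte markers was 0.28 above the wild-type mean there, with Ms4a4c at 9.27 against 7.89 to 8.20 on the other arrays. Of those 5 markers 2 were above the filter, and the list's mean level was 7.03 to 7.28 in vimentin-deficient and 6.98 to 7.03 in wild-type macrophages. The macrophage list was 0.26 above its wild-type mean on that array, but its members did not move together. Fcgr1 was at 11.70 against 9.82 to 10.21 on the other arrays, and Cd14 at 13.16 against 12.01 to 12.76. Itgam (9.60), Msr1 (9.58) and Cd68 (13.60) were at their lowest there. Cd14 was also above every wild-type array on vimentin-deficient replicates 1 and 2 (12.76 and 12.59). Without replicate 3 it rose by 0.59 (limma adjusted p = 0.00201), where 1.31% of all tested genes rose. It was the only 1 of the 10 macrophage markers to pass in that fit. On vimentin-deficient replicate 3 the mean of the 5 measured osteoclast markers was 0.34 above the wild-type mean, carried by Ctsk, the bone collagen protease, at 9.01 against 7.37 to 7.72 on the other arrays. Acp5 (7.94) and Dcstamp (7.07) were also above every wild-type array there. Ocstamp (6.33) and Calcr (6.26), both below the filter, were below every wild-type array. Of those 5 markers 3 were above the filter, and the list's mean level was 6.94 to 7.32 in vimentin-deficient and 6.94 to 7.02 in wild-type macrophages. The mean of the 4 measured erythroid and megakaryocyte markers was at -0.77 there, carried by Pf4, a platelet chemokine that macrophages also express, at 8.45 against 10.78 to 11.31. Itga2b was at 7.53, Klf1 at 7.39 and Alas2 at 6.37 on that array. Of these 4, 3 were above the filter, and their mean level was 7.44 to 8.24 in vimentin-deficient and 8.14 to 8.26 in wild-type macrophages. The part of these cells in the receptor values was not tested.

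Ccr1 and Ccr2 sit in a cluster of receptor genes on chromosome 9, where RefSeq lists Ccr9, Fyco1, Cxcr6, Xcr1, Ccr1, Ccr1l1, Ccr3 and Ccr2 in this order. Both genes between Ccr1 and Ccr2, which encode a CCR1-like receptor and the eotaxin receptor, were below the filter and were read in a fit without a filter. Ccr3 was at 6.45, 6.54 and 7.25 in vimentin-deficient and 7.19, 6.82 and 7.01 in wild-type macrophages, with vimentin-deficient replicates 1 and 2 below every wild-type array and replicate 3 above them. Its difference was -0.26 with 6 arrays (limma adjusted p = 0.800), and without vimentin-deficient replicate 3 it fell, at -0.51 (adjusted p = 0.00506), where 2.08% of all 18193 genes passed. Ccr1l1 was at 6.43, 6.60 and 6.74 in vimentin-deficient and 6.81, 6.72 and 6.78 in wild-type macrophages, with replicates 1 and 2 again below every wild-type array. Its difference was -0.18 with 6 arrays (adjusted p = 0.664), and it fell by 0.25 without replicate 3 (adjusted p = 0.0393). In that last fit Ccr1 had an adjusted p of 0.0874. The neighbours were examined after the receptor values were seen, their probe sets are dim, and Ccr1l1 is close in sequence to Ccr1, so its reading is uncertain. On the other side of Ccr1, Cxcr6 differed by -0.10, Xcr1 by -0.01, Fyco1 by 0.16 and Ccr9 by 0.05 with 6 arrays, and Fyco1 by -0.01 without vimentin-deficient replicate 3, none past the threshold.

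Of the ligands of the 6 receptors, 12 of 13 were tested. With 6 arrays 7 were higher and 5 lower in vimentin-deficient macrophages, 0 passed the limma threshold, and the median difference was 0.15 (all tested genes: -0.02). Without vimentin-deficient replicate 3, 10 were higher and 2 lower, and 5 rose, where 1.31% of all tested genes rose; the median was 0.20 (all tested genes: -0.01). They were the CCR2 ligands Ccl2, Ccl7 and Ccl12 and the CCR1 ligands Ccl3 and Ccl5. Ccl6 and Ccl9, also on the list, did not pass. Without that array Ccl6 was lower, at -0.32 (limma adjusted p = 0.0606), and Ccl9 had 0.14 (adjusted p = 0.362).

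Ccl2 was at 10.79, 10.43 and 7.15 on vimentin-deficient replicates 1 to 3 and 9.93, 8.63 and 9.17 on wild-type replicates 1 to 3. Ccl7 was at 10.29, 10.03 and 7.63 against 9.49, 8.60 and 8.86. Both were above every wild-type array on vimentin-deficient replicates 1 and 2 and below every wild-type array on replicate 3, and without that array Ccl2 rose by 1.37 (SE 0.28, limma adjusted p = 0.0307) and Ccl7 by 1.18 (SE 0.20, adjusted p = 0.0125). With 6 arrays their differences were 0.21 and 0.33. Within each genotype Ccl2, Ccl7 and Ccl3 had the array order of the proliferation mean. The part of proliferation in their values was not tested.

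Ccl12, at 8.49, 8.78 and 8.28 in vimentin-deficient and 7.997, 7.001 and 7.404 in wild-type macrophages, was higher on all 3 vimentin-deficient arrays. Its difference was 1.05 with 6 arrays (SE 0.25, limma adjusted p = 0.345) and 1.17 without vimentin-deficient replicate 3 (SE 0.22, adjusted p = 0.0187). Ccl5, at 7.64, 7.64 and 8.42 against 7.08, 7.24 and 7.17, was also higher on all 3, with 0.74 (SE 0.20, adjusted p = 0.427) and 0.48 (SE 0.06, adjusted p = 0.00196). The share of all tested genes that were higher on all 3 vimentin-deficient arrays was not counted. Ccl3 had 0.24 with 6 arrays and rose by 0.50 (SE 0.10, adjusted p = 0.0277) without vimentin-deficient replicate 3. On that array Ccl3 was at 11.07, below every wild-type array.

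No tested ligand of the other receptors passed the limma threshold with or without vimentin-deficient replicate 3. Cxcl12, the ligand of CXCR4, had -0.02 with 6 arrays, Cx3cl1 -0.05, and Mif, a cytokine that also binds CXCR4, -0.16. Without vimentin-deficient replicate 3 all 3 changed sign, to 0.03, 0.01 and 0.12, and none passed the limma threshold in either fit. The FPR2 ligand genes Anxa1 (-0.15) and Saa3 (0.23) each had no overlap between the groups, in opposite directions, and limma adjusted p of 0.579 and 0.538. Of all tested genes, 10.1% were lower without overlap, as Anxa1 was. The share higher without overlap was not counted.

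Of the other chemokine receptors 10 of 20 were tested, 3 higher and 7 lower with a median of -0.008, and 0 passed with or without vimentin-deficient replicate 3. Cxcr3, a receptor for interferon-induced chemokines, had the smallest p: it was at 8.34, 8.38 and 8.39 in vimentin-deficient and 8.53, 8.58 and 8.61 in wild-type macrophages, a difference of -0.21 (SE 0.06, limma adjusted p = 0.412) without overlap. Of all tested genes, 10.1% were likewise lower without overlap. Ackr4, a scavenging receptor, had 0.49, which rested on vimentin-deficient replicate 2 at 8.46, the other 5 arrays lying between 6.89 and 7.29. Of the other chemoattractant receptors 6 of 16 were tested, 1 higher and 5 lower with a median of -0.05, and 0 passed in either fit. C5ar1, the receptor of complement fragment C5a, had 0.29 (SE 0.11, adjusted p = 0.602), S1pr1 -0.19 and the leukotriene receptor gene Ltb4r1 -0.03. The oxysterol receptor gene Gpr183 had -0.37, which rested on vimentin-deficient replicate 3 at 7.13 and was -0.001 without it. S1pr1 was -0.12 in that fit.

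Downstream of the receptors, 21 of 23 G proteins and effectors of chemotaxis were tested, 10 higher and 11 lower with a median of -0.02, and 0 passed in either fit. The smallest p belonged to the GTPase gene Rac2 (0.20), the kinase gene Ptk2b (0.20) and the G protein subunit genes Gng12 (-0.23) and Gnai3 (-0.15). These 4 had 0.14, 0.13, -0.13 and -0.08 without vimentin-deficient replicate 3. Of the genes that switch receptors off, 14 of 16 were tested, 8 higher and 6 lower with a median of 0.01, and 0 passed in either fit. The receptor kinase gene Grk3 had 0.19, Rgs2 0.32, the arrestin gene Arrb2 0.18 and Grk5 0.21. The same 4 had 0.14, 0.26, 0.12 and 0.07 without vimentin-deficient replicate 3.

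Of the transcription factors of monocytes and macrophages 11 of 12 were tested, 8 higher and 3 lower with a median of 0.11, and 0 passed with 6 arrays. Spi1, which encodes PU.1, had 0.13, Cebpb 0.44 (SE 0.14, limma adjusted p = 0.516) and Klf2 0.39. Without vimentin-deficient replicate 3 these were 0.06, 0.29 and 0.22, none past the threshold. In that fit Klf4 rose by 0.59 (SE 0.09, adjusted p = 0.00506) and Cebpa, a factor of myeloid commitment, fell by 0.87 (SE 0.11, adjusted p = 0.00201). With 6 arrays Klf4 had 0.32 and Cebpa -0.55. Klf4 was at 7.05 on the array left out, below every wild-type array. Cebpa was at 10.42 on it, above every wild-type array. Over the 6 lists together, 74 of 100 genes were tested. At an unadjusted limma p below 0.05 there were 10 with 6 arrays, where 7.97% of all tested genes had such a p, and 21 without vimentin-deficient replicate 3, where 14.2% had.

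**Figure D5:**
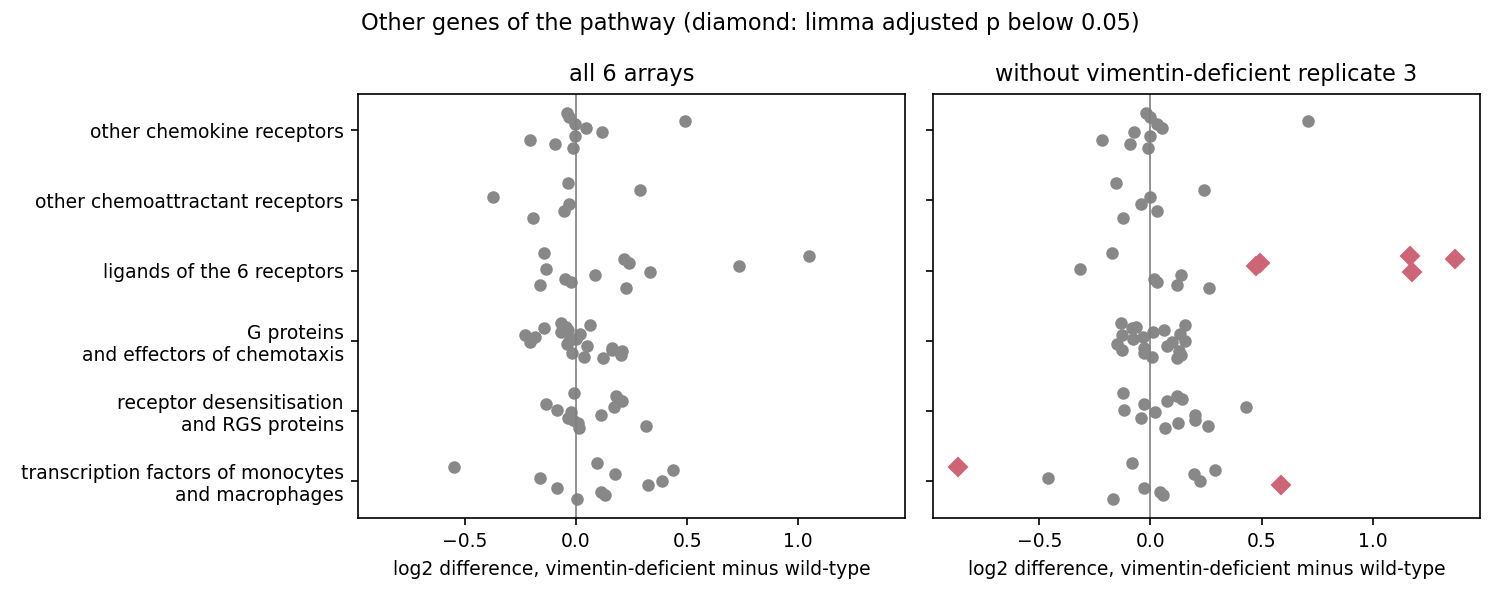
Log2 difference, vimentin-deficient minus wild-type, of each tested gene of the 6 related lists, with all 6 arrays (left) and without vimentin-deficient replicate 3 (right); diamonds mark a limma adjusted p below 0.05. With 6 arrays 0 of 74 genes pass; without that array 5 ligands and Klf4 pass as higher and Cebpa as lower.

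For each receptor gene the 3 tested genes with the most similar pattern over the 6 arrays were named by Pearson correlation, as a description. Nearest to Ccr1 were Gask1b (r = 0.997), Mettl22 (0.996) and Snx7 (0.996), and 232 genes exceeded 0.95. Nearest to Cxcr4 were the Toll-like receptor genes Tlr7 (0.997) and Tlr9 (0.997) and the cystatin gene Cst3 (0.992), with 114 genes above 0.95. Over the 5 arrays without vimentin-deficient replicate 3 the same correlations were 0.991 for Tlr7, 0.994 for Tlr9 and 0.985 for Cst3. The genes were chosen on arrays that include these 5, so these values are no independent check. Nearest to Ccr2 were Inpp5f (0.983), Apoe (0.973) and Kifc2 (0.971), and nearest to Cx3cr1 were H2-T3 (0.997), D7Ertd443e (0.994) and Npy6r (0.991). Nearest to Fpr2 were Sfxn5 (0.977), Zfp692 (0.974) and Cdk12 (0.973), with 0.903, 0.976 and 0.936 over the same 5 arrays. The arrays share vimentin-deficient replicate 3, and for Ccr2 and Cx3cr1 the correlations rest on differences of about 0.1 log2 units. Of the 15 genes, 2 were still among the 3 nearest when that array was left out.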

How the data were processed

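Total RNA of 3 vimentin-deficient and 3 wild-type macrophage samples was measured on Affymetrix mouse arrays. The authors deposited log2 values per probe set; per the labels, biotinylated cRNA was hybridised, and the sources used here do not give the summary and normalization method. The array medians lie between 7.23 and 7.25, and the values were used as deposited. The number of arrays limits the precision.

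Of 45101 probe sets (64 controls), 34945 named 1 gene, 932 several and 9160 none; 34741 matched a mouse gene table (GRCm38.p6) by Entrez ID. Each gene was its probe set with the highest mean, and genes below the 40th percentile of means (6.93) were left out. Genotypes were compared with limma 3.58.1 in R 4.3.3 (lmFit, eBayes with trend), Benjamini-Hochberg adjusted over 13445 genes, threshold 0.05; the procedure was tested on simulated data. SE and intervals come from limma.

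The members and lists were chosen with earlier results of these data known. Named are Vim, all receptors, list members past the threshold (otherwise up to 4 with the smallest p), the 3 genes most like each receptor, and the 2 brightest of each marker list. The proliferation genes, the chromosome 9 neighbours, Ccl2, Ccl3, Ccl6, Ccl7, Ccl9, Spi1, Cxcl12, Cx3cl1 and Mif were named after their values were seen. The sources used here do not say whether replicate numbers pair the samples, so the main fit did not use them. The deviations of same-numbered arrays correlated at 0.50, -0.19 and 0.05, which with 3 arrays per genotype cannot decide it. Alternatives covered normalization, filter, probe set rule, variance model, replicate block and leaving out each array.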

Additional observations from a re-analysis of the deposited data

How the results depend on the processing

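The count of receptor genes past the limma threshold was 0 under every setting tried, as was that of receptor probe sets. Ccr1, Ccr2, Cx3cr1 and Fpr2 kept their sign in all of them, and Ccr1 ranged from -1.41 to -0.52 on the log2 scale with a lowest adjusted p of 0.0874, in the fit without a filter and without vimentin-deficient replicate 3. The differences of Ccr2 (-0.07 to -0.003), Cx3cr1 (-0.06 to -0.002) and Fpr2 (0.02 to 0.16) lay near 0, so their sign gives no direction. Cxcr4 turned to -0.15 with array quality weights and to -0.25 with quantile normalization without vimentin-deficient replicate 3, and ranged from -0.25 to 0.67 when each array was left out in turn. Of all tested genes, 3 passed in the fit reported, 93 with array quality weights, 0 with the per-gene linear model, 0 with the replicate number as a block, and 0 to 315 when each array was left out. The replicate block changed no call of a receptor gene (0 of 5). Of the related genes, 0 to 7 passed when each array was left out, the 7 without vimentin-deficient replicate 3. Fpr2 is below the filter at the 60th percentile and has no value there. The causes were not tested. Signal near background limits Ccr2, Cx3cr1 and Fpr2.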
